A study of Homo sapiens with 2 samples.

Results

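Genes of the sarcoplasmic reticulum calcium release complex were described across the cells of a stem cell-derived cardiomyocyte preparation. The 7 members, RYR2, CASQ2, TRDN, ASPH, JPH2, HRC and ITPR2, were taken by symbol from the 36601 genes of the count matrix, and all 7 were found. The cells were human cardiomyocytes made from H9, an established embryonic stem cell line, and all of them carried gCaMP6f, a fluorescent calcium reporter. Differentiation had run for 15 days before freezing, and the thawed cells were stained with antibody-borne oligonucleotides (hashtags) and then combined into 1 pool for droplet sequencing. Neither the labels nor the matrix say what each of the 13 hashtags marks, and there is only 1 pool, so cells are not replicates and no test was made. Every group below is a set of cells within this pool that shares the line, the reporter, the day and the freezing.

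In heart muscle, calcium that enters through L-type channels opens RYR2, the ryanodine receptor through which the sarcoplasmic reticulum releases its store. CASQ2, cardiac calsequestrin, buffers calcium inside the store, and triadin (TRDN) and junctin tether it to the channel. Junctin is a splice product of ASPH, a gene that also encodes an aspartyl/asparaginyl beta-hydroxylase, so a count of ASPH does not tell them apart. JPH2 holds the reticulum close to the plasma membrane, HRC is a histidine-rich calcium-binding protein of the lumen, and ITPR2 is an inositol trisphosphate receptor, a release channel used in many cell types.

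The bases upstream of 4 members are shown because RYR2, TRDN and HRC were the release, anchoring and lumenal genes that were jointly high in cardiomyocyte-like cells, while CASQ2 was almost undetected there. The RefSeq table (GRCh38.p14) held a window of 250 bases before the start for 5 of the 7 members, and only bases before the first annotated exon were kept. None remained for JPH2. The kept windows of TRDN, CASQ2 and HRC ended 143, 67 and 28 bases before the RefSeq start, and only that of RYR2 reached it. Windows were searched on both strands for the E-box (CANNTG), the MCAT motif (CATTCC) and the MEF2 and CArG motifs. They were also searched for GATAA, a motif of the cardiac zinc finger factors, and for the core promoter motif TATAAA. Matches are in capitals, sequences run 5′ to 3′ on the gene's strand, GGAATG is the MCAT motif read from the other strand, and no match overlapped another.
RYR2: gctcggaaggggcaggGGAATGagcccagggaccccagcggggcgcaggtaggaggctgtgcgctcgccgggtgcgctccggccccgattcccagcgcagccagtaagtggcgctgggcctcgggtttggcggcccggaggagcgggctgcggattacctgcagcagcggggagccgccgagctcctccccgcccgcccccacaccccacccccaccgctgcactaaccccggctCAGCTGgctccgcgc
TRDN: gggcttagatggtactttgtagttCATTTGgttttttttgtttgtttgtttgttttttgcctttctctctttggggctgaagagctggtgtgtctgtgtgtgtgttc
HRC: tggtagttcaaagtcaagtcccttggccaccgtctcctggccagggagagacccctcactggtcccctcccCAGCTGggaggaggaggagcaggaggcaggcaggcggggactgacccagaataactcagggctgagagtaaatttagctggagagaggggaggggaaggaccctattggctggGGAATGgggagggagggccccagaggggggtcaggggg
CASQ2: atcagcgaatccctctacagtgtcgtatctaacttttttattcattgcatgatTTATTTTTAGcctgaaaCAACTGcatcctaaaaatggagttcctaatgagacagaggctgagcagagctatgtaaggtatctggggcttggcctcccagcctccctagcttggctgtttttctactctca
The RYR2 window (250 bases, plus strand, chr1:237041934-237042183) held 1 MCAT and 1 E-box match. The TRDN window (107 bases, minus strand, chr6:123637094-123637200) held 1 E-box. The HRC window (222 bases, minus strand, chr19:49155425-49155646) held 1 E-box and 1 MCAT match, as did that of RYR2. The CASQ2 window (183 bases, minus strand, chr1:115768782-115768964) held 1 MEF2 match and 1 E-box. Of all 35116 RefSeq windows cut to the same 250 bases, 61.8% held an E-box and 11.9% an MCAT motif. At 222 bases 58.1% held an E-box and 10.7% an MCAT motif, and at 107 bases 35.0% held an E-box. At 183 bases 2.13% held a MEF2 match and 51.7% an E-box. Motifs found in none of the 4 windows were GATAA, in 20.4% of windows of 250 bases, TATAAA, in 10.7%, and the CArG motif, in 1.16%. These shares were lower in shorter windows. The core promoter motif was in 4.80% of windows of 107 bases, 7.23% of those of 183 and 8.16% of those of 222. Bases next to the RefSeq start were not searched for TRDN, CASQ2 and HRC, so absence of the core promoter motif there was not tested.

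After quality filters and removal of predicted doublets, 19309 cells remained, with 1000 to 115854 UMIs (unique molecular identifiers, counted RNA molecules) each. Clusters were named from marker genes. Cardiomyocyte-like cells numbered 14757, or 76.4% (exact 95% interval 75.8 to 77.0), with a median of 12738 UMIs. The other lineages were stromal-like (1544 cells), epithelial-like (723), endoderm-like (305), epicardial-like (243) and endothelial-like (62). Another 1675 barcodes had a median of 1938 UMIs and 13.0% mitochondrial UMIs and were left out of comparisons. The 12 cardiomyocyte markers summed to 40253 CPM in cardiomyocyte-like cells and to 6391 CPM in the other lineages pooled. CPM are the UMIs of a group scaled to the same total in each group. Clusters were named cardiomyocyte-like by the sum of these same 12 markers, so this gap follows from the naming and does not test the label.

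Levels are the group's summed UMIs, as CPM. A gene was measured in a comparison when its higher side had at least 10 CPM and 10 counts, and it was called higher or lower from a ratio of 1.5. Brackets hold exact 95% intervals, for counting error alone.

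Cardiomyocyte-like cells had higher levels of RYR2, TRDN, JPH2, HRC and ASPH than the other lineages, and a lower level of ITPR2. Of the 7 members 6 were measured, 5 of them higher and 1 lower, against 13.1% of 9479 measured genes called higher and 26.1% called lower. The members' median log2 ratio was 1.93 and that of all measured genes -0.19. Scaling by the trimmed mean of M values (TMM) would raise every log2 ratio of this comparison by 0.41, so that each direction is kept.

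RYR2 was at 217 CPM in cardiomyocyte-like cells, compared with 47.6 CPM in the other lineages, a ratio of 4.56 (4.35 to 4.79). The gene spans 791.8 kb of chromosome 1 (237042205 to 237833988, plus strand, GENCODE 29 on GRCh38). Cells with at least 3000 UMIs (14366 of 14757 cardiomyocyte-like cells and 2696 of 2877 cells of other lineages) were thinned to 3000 UMIs, and shallower cells were left out. Then 44.9% of cardiomyocyte-like cells had an RYR2 UMI, against 12.3% of cells of other lineages. Before thinning the share was 84.4% in cardiomyocyte-like cells (median depth 12738 UMIs) and 31.6% in other lineages (11374 UMIs). RYR2 was past the threshold in the same direction in 12 of the 12 hashtags with at least 20 cells on both sides, with ratios of 2.75 to 9.57.

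Among the anchoring members, TRDN (chromosome 6, 123216339 to 123637093, minus strand) had the largest ratio, 6.10 (5.80 to 6.43), with 262 CPM in cardiomyocyte-like cells, compared with 42.9 CPM in other lineages. JPH2 (chromosome 20, 44111695 to 44187578, minus strand) was at 39.2 CPM in cardiomyocyte-like cells, compared with 9.49 CPM in the others, a ratio of 4.13 (3.70 to 4.62). Both were past the threshold in 12 of 12 hashtags. ASPH (chromosome 8, 61500556 to 61714640, minus strand) differed least, with 201 CPM in cardiomyocyte-like cells, compared with 99.3 CPM in other lineages, a ratio of 2.02 (1.96 to 2.10). It was higher in 12 of 12 hashtags and past the threshold in 10.

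The lumenal member HRC (chromosome 19, 49151198 to 49155424, minus strand) was at 110.2 CPM in cardiomyocyte-like cells, compared with 31.3 CPM in the other lineages, a ratio of 3.53 (3.32 to 3.75). Among 12 hashtags it was higher in 11 and past the threshold in 9, with a lowest ratio of 0.931. The other lumenal member, CASQ2 (chromosome 1, 115700007 to 115768781, minus strand), was almost undetected. All 24038 barcodes together held 239 CASQ2 UMIs. There were 184 UMIs in cardiomyocyte-like cells, or 0.840 CPM, and 12 in other lineages, or 0.341 CPM, so the gene was not measured by the rule above. A CASQ2 UMI was found in 1.19% of cardiomyocyte-like cells. No CASQ2 UMI was found in endoderm-like cells, which allows up to 0.601 CPM, in epicardial-like cells (up to 0.939 CPM) or in endothelial-like cells (up to 4.94 CPM). CASQ1, the skeletal muscle calsequestrin, gave 861 UMIs in cardiomyocyte-like cells (3.93 CPM) and 21 in other lineages (0.597 CPM) and was not measured either.

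ITPR2 (chromosome 12, 26336515 to 26833198, minus strand) ran the other way. It was at 2.85 CPM in cardiomyocyte-like cells, from 624 UMIs, and at 15.9 CPM in other lineages, from 558 UMIs, which is 5.57-fold lower (4.96 to 6.25) in cardiomyocyte-like cells. It was lower by more than the threshold in 12 of 12 hashtags, by 2.11- to 13.0-fold. ITPR1, its paralogue, was at 12.8 CPM in cardiomyocyte-like cells, compared with 25.8 CPM in other lineages, 2.02-fold lower (1.87 to 2.17). The remaining paralogues RYR1, RYR3 and ITPR3 stayed under 2 CPM on both sides.

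**Figure D1:**
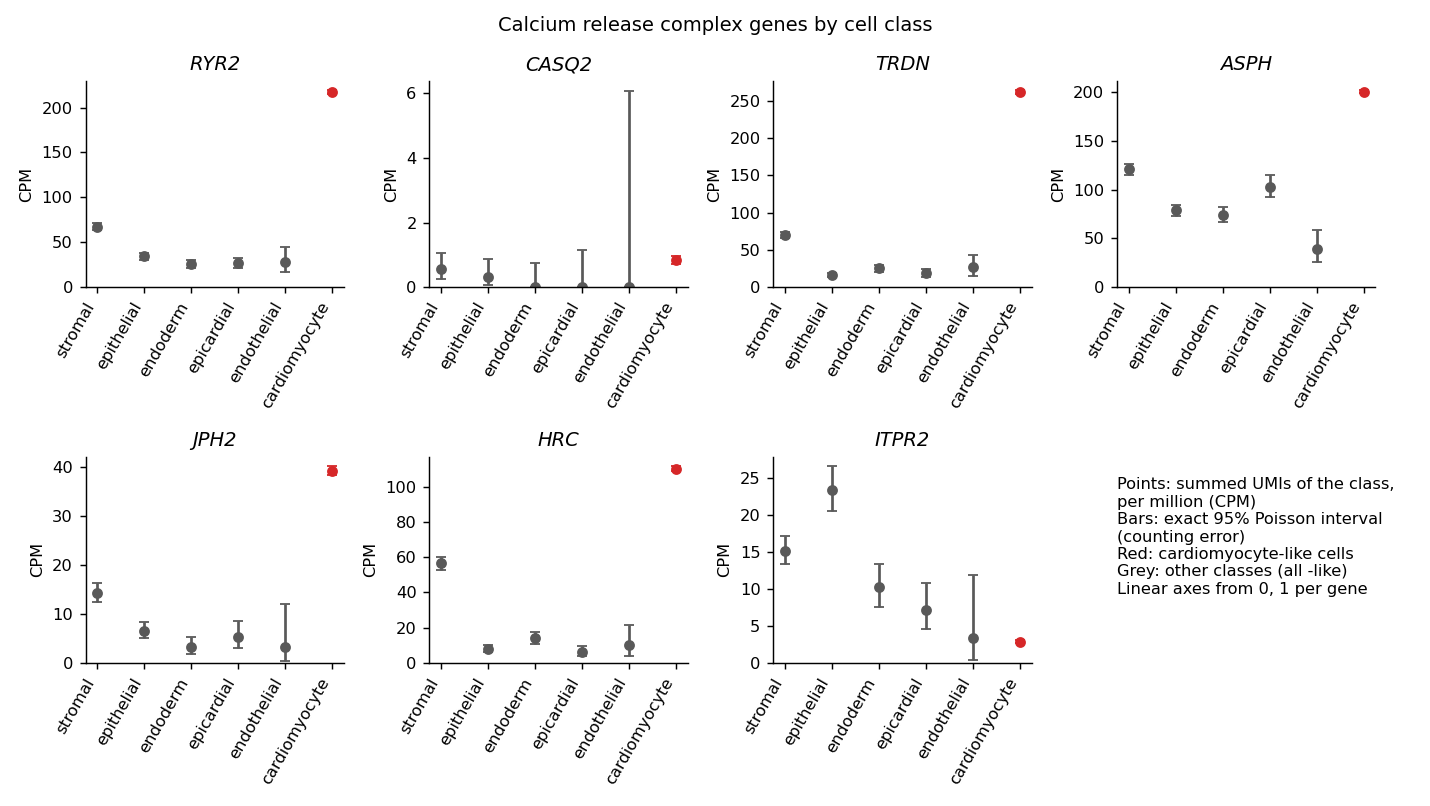
Level of each member in CPM (vertical axes, linear from 0) in the 5 other lineages (grey) and in cardiomyocyte-like cells (red, at the right); bars are exact 95% Poisson intervals. RYR2, TRDN, ASPH, JPH2 and HRC are highest in cardiomyocyte-like cells (217 CPM for RYR2), ITPR2 is highest in epithelial-like cells (23.4 CPM), and CASQ2 is at most at 0.840 CPM.

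Taken one by one against cardiomyocyte-like cells, stromal-like, epithelial-like and endoderm-like cells each had 5 members lower and 1 higher, and epicardial-like and endothelial-like cells each had 5 lower and none higher. Of all measured genes, 11.2% were lower and 25.2% higher in stromal-like, 19.2% lower and 28.2% higher in epithelial-like, and 20.1% lower and 26.9% higher in endoderm-like cells. In epicardial-like cells 21.0% were lower, and in endothelial-like cells 30.9%. ITPR2 was the member called higher. It reached 23.4 CPM in epithelial-like cells and 15.1 CPM in stromal-like cells, while cardiomyocyte-like cells had 2.85 CPM, ratios of 8.21 (7.03 to 9.55) and 5.31 (4.57 to 6.16). Endoderm-like cells had 10.2 CPM from 51 UMIs, a ratio of 3.58 (2.64 to 4.77). That call is lost without hashtag 15, at 9.78 CPM, and also with doublets kept (7.87 CPM), at Leiden resolution 1.0 (8.85 CPM), under TMM scaling (9.19 CPM) and in hashtag-assigned cells (8.01 CPM), all under the minimum level. Epicardial-like cells (7.20 CPM) and endothelial-like cells (2 UMIs) did not reach the minimum level.

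The levels of the cardiac members in other lineages are set here beside those of the cardiomyocyte markers. In stromal-like cells the 12 cardiomyocyte markers stood at 11.4% to 29.4% of their level in cardiomyocyte-like cells, with a median of 22.1%. TRDN was within that range at 26.9% and RYR2 just above it at 31.0%. JPH2 was at 36.4%, HRC at 51.3% and ASPH at 60.2%, above all 12 markers. HRC was at 56.5 CPM in stromal-like cells and 110.2 CPM in cardiomyocyte-like cells, 1.95-fold lower (1.83 to 2.09). Across the 11 hashtags with enough cells, HRC in stromal-like cells was lower in 9 and higher in 2, with ratios to cardiomyocyte-like cells of 0.169 to 1.19.

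In epithelial-like cells the markers stood at 4.68% to 19.5%, with a median of 7.72%. TRDN (6.0%), HRC (7.2%), RYR2 (15.7%) and JPH2 (16.6%) were within that range and ASPH (39.2%) was above it. TRDN was 16.7-fold lower (14.3 to 19.6) there, at 15.7 CPM against 262 CPM in cardiomyocyte-like cells. In epicardial-like cells ASPH was at 103 CPM, 1.95-fold lower (1.75 to 2.18) than the 201 CPM of cardiomyocyte-like cells, whereas HRC was 18.5-fold lower (11.9 to 30.8). No correction for free RNA was applied, and the part of the marker RNA found in these cells was not tested.

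Lists of 41 other genes of calcium release, its triggers and its reuptake were set beside the members. In cardiomyocyte-like cells against the other lineages 32 were measured, 14 higher and 7 lower, with a median log2 ratio of 0.52. Of all 9479 measured genes 13.1% were higher and 26.1% lower, with a median log2 ratio of -0.19. Of 10 organisers of the junction 6 were measured, 4 higher and 1 lower. TMEM38A, a counter-ion channel of the reticulum, was at 28.2 CPM in cardiomyocyte-like cells, compared with 6.73 CPM in other lineages, a ratio of 4.20. BIN1, which bends membrane, was 5.28-fold lower in cardiomyocyte-like cells, at 9.56 CPM against 50.5 CPM in other lineages. Of 4 lumenal buffers 3 were measured, with sarcalumenin (SRL) higher at 11.4 CPM in cardiomyocyte-like cells against 1.11 CPM in other lineages. The lumenal proteins calreticulin (CALR) and calumenin (CALU) were 1.84- and 1.55-fold lower in cardiomyocyte-like cells.

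Of 4 trigger channel genes, all measured, CACNB2 was higher in cardiomyocyte-like cells, at 89.2 CPM against 18.2 CPM in other lineages, and so was CACNA1C, the L-type channel's pore, at 41.4 CPM against 14.3 CPM in other lineages. The sodium-calcium exchanger SLC8A1 was at 415 CPM in cardiomyocyte-like cells, compared with 122 CPM in other lineages, a ratio of 3.40. AKAP6, an anchor for protein kinase A, was at 37.1 CPM in cardiomyocyte-like cells against 8.30 CPM in the other lineages.

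Cardiomyocyte-like cells were then clustered by themselves, without use of the members, into 10 clusters of 184 to 3008 cells, which are called here by number and leading genes. Calls against the other cardiomyocyte-like cells were made for members in 6 of the 10. CASQ2 and ITPR2 were not measured in any of them. TMM scaling would shift the clusters' log2 ratios by -0.26 (cluster 10) to 0.15 (cluster 7).

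Cluster 5 (1502 cells, led by LMOD2 and IRX1) had the highest levels of TRDN and ASPH, though for ASPH its interval overlaps that of cluster 10. Of 5 measured members 3 were higher, against 7.76% of measured genes. TRDN was at 511 CPM in cluster 5 and 243 CPM in the other cardiomyocyte-like cells, a ratio of 2.11 (2.06 to 2.16). ASPH was at 313 CPM in cluster 5 and 192 CPM in the others, a ratio of 1.63 (1.58 to 1.68). HRC was at 171 CPM in cluster 5 and 105 CPM in the others, also 1.63 (1.56 to 1.69). Under TMM scaling the ASPH and HRC ratios were both 1.43 and their calls were lost. RYR2 was at 306 CPM in cluster 5 and 211 CPM in the others, a ratio of 1.45 (1.41 to 1.499) that did not reach the threshold. JPH2 differed little, at 44.0 CPM in cluster 5 and 38.9 CPM in the others. In each of the 9 hashtags with enough cells TRDN was past the threshold, with ratios of 1.70 to 2.82, and RYR2, ASPH and HRC were higher. After thinning, 76.6% of cluster 5 cells had a TRDN UMI, against 54.7% of all cardiomyocyte-like cells.

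Cluster 1 (3008 cells, led by NR2F2 and NPPA, genes of atrial identity) had the highest level of JPH2. JPH2 was at 66.5 CPM in cluster 1 and 35.3 CPM in the other cardiomyocyte-like cells, a ratio of 1.88 (1.79 to 1.98), and was the only 1 of 5 measured members called higher, against 7.86% of measured genes. It was higher in 10 of 10 hashtags and past the threshold in 7. Cardiomyocyte markers summed to 56373 CPM in cluster 1 and 40253 CPM in all cardiomyocyte-like cells. Single markers stood at 79.9% (MYH7) to 195.4% (MYL7) of their level in all cardiomyocyte-like cells, with a median of 125.1%. JPH2 was at 39.2 CPM in all cardiomyocyte-like cells, so its level in cluster 1 lay within the markers' range. The part of this marker difference in the ratios of JPH2 and the pathway genes was not tested. TRDN was at 345 CPM in cluster 1 with a ratio of 1.38 (1.35 to 1.41), HRC had a ratio of 1.06 and RYR2 1.10. Of 31 measured pathway genes 6 were higher and 4 lower in cluster 1, against 675 higher and 393 lower of all 8593 measured genes. The higher ones were CACNA1D, SPEG, AKAP6, ATP2B4, SLC8A1 and ATP2A2, and the lower ones JPH1, BIN1, SRI and ITPR1. The ratios were 3.38 for CACNA1D, an L-type channel pore, 2.77 for the kinase gene SPEG and 1.86 for the reticulum's calcium pump ATP2A2. JPH1, another junctophilin, was 1.79-fold lower in cluster 1 (17.4 CPM against 31.0 CPM in the others).

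Cluster 4 (1538 cells, led by the S phase genes HIST1H4C and PCLAF) had 3 of 5 measured members lower, against 3.31% of measured genes called lower. RYR2 was at 150.2 CPM in cluster 4 and 236 CPM in the other cardiomyocyte-like cells, 1.57-fold lower (1.53 to 1.61). HRC was 1.69-fold lower (1.63 to 1.76) and TRDN 1.52-fold lower (1.48 to 1.55), while JPH2 was at 38.1 CPM in cluster 4 and 39.5 CPM in the others. The RYR2 and TRDN calls were lost under TMM scaling, at 1.47-fold and 1.42-fold lower, and TRDN's also without hashtag 7, at 1.48-fold lower. RYR2 was 1.35-fold lower with no cell filter, 1.40-fold lower with doublets kept and 1.44-fold lower in hashtag-assigned cells, each without a call. TRDN also lost its call with no cell filter and with doublets kept. With no cell filter the cells were clustered anew, and clusters 4 and 8 had their largest overlap with the same new cluster. At a Leiden resolution of 1.0 TRDN was 1.45-fold and HRC 1.49-fold lower, both without a call, while ASPH was called lower, at 1.502-fold, and also under the stricter cell filter, at 1.503-fold. All of RYR2, TRDN, ASPH and HRC were lower in 10 of 10 hashtags. The cluster's cells had a median of 25165.5 UMIs, the highest of the 10 clusters, and the part of that depth in these ratios was not tested. Cluster 8 (785 cells, led by CENPF, a mitotic gene) had 1 of 5 measured members lower, against 3.74% of measured genes. HRC was at 65.5 CPM in cluster 8 and 113 CPM in the others, 1.73-fold lower (1.62 to 1.85).

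Cluster 6 (1467 cells, led by ANGPT1 and LRRN3) had no member called, against 9.01% of measured genes. RYR2 was at 305 CPM there and 207 CPM in the other cardiomyocyte-like cells, a ratio of 1.48 (1.44 to 1.51). It passed the threshold without hashtag 7, at 1.52, while TMM scaling would lower it, with a log2 shift of -0.17. Within hashtags RYR2 was higher in 7 of 7 and past the threshold in 1, with ratios of 1.07 to 1.66. ITPR2 was at 6.19 CPM in cluster 6, from 144 UMIs, and 2.45 CPM in the others, a ratio of 2.52 (2.08 to 3.05) below the minimum level. Its paralogue ITPR1 was called higher, at 28.8 CPM in cluster 6 and 10.9 CPM in the others, a ratio of 2.65. Cluster 10 (184 cells, led by CRHBP and HOXB1) had HRC higher with a ratio of 1.61 (1.43 to 1.80) and RYR2 1.70-fold lower (1.49 to 1.96), against 18.9% of measured genes called higher and 7.98% lower. The HRC ratio was 1.34 under TMM scaling. MYH11 and COL3A1 were among the 10 leading genes of cluster 10, and its MYH7 stood at 11.1% of the level of all cardiomyocyte-like cells. Summed stromal markers were at 287 CPM in cluster 10 and 49.2 CPM in all cardiomyocyte-like cells, smooth muscle or pericyte markers at 813 CPM in cluster 10 and 265 CPM in all, and endothelial markers at 159 CPM in cluster 10 and 26.2 CPM in all. Smooth muscle or pericyte markers were also at 482 CPM in cluster 1 and 386 CPM in cluster 5. The part of these markers in the ratios of these clusters was not tested. Cluster 2 (2717 cells, led by the metallothionein genes MT1G and MT1E) had JPH2 1.502-fold lower (1.41 to 1.60), 1 of 5 measured members, against 6.46% of measured genes called lower. That call was lost without any one of hashtags 1, 3, 4, 5, 8, 9, 14 or 15, where JPH2 was 1.48- to 1.499-fold lower. Clusters 3, 7 and 9 had no member called, against 6.46%, 20.0% and 10.6% of measured genes.

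**Figure D2:**
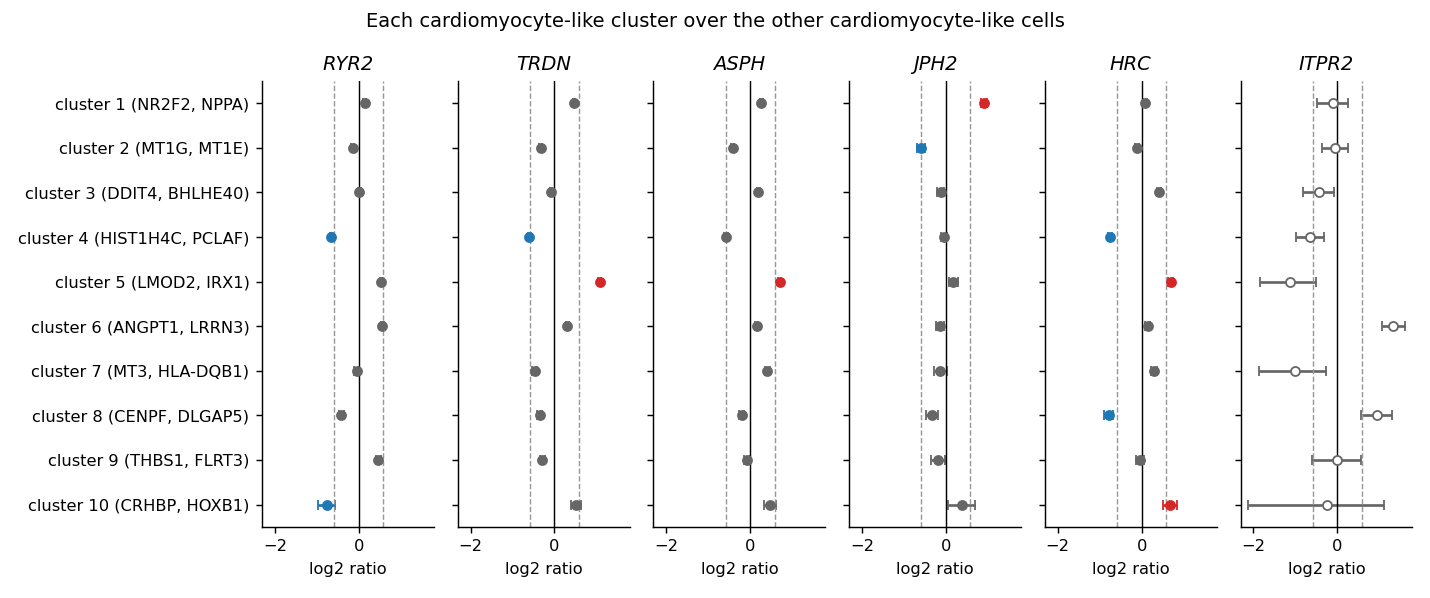
Log2 ratio of each cardiomyocyte-like cluster (rows) over the other cardiomyocyte-like cells for 6 members; bars are exact 95% intervals, dashed lines mark a ratio of 1.5, red and blue are calls higher and lower, and open points are below the minimum level. TRDN, ASPH and HRC are to the right in cluster 5, JPH2 in cluster 1, and RYR2, TRDN and HRC to the left in cluster 4.

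In the order of levels over the 10 clusters and 5 lineages, RYR2 was highest in clusters 5, 6 and 9 (306, 305 and 296 CPM), whose intervals overlap, and then lower in cluster 1 (237 CPM). TRDN was highest in cluster 5, clear of clusters 10 and 1 (375 and 345 CPM, overlapping). HRC was highest in clusters 10 and 5 (176 and 171 CPM, overlapping) and lowest among cardiomyocyte-like clusters in 4 and 8 (71.4 and 65.5 CPM, overlapping). JPH2 was highest in cluster 1, clear of the overlapping pair 10 and 5 (50.7 and 44.0 CPM). In every one of the 10 clusters RYR2, TRDN, ASPH, JPH2 and HRC were higher than in any of the 5 other lineages. HRC came closest, with 65.5 CPM in cluster 8 and 56.5 CPM in stromal-like cells, followed by ASPH, with 145 CPM in cluster 4 and 121 CPM in stromal-like cells.

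TRDN overlaps TRDN-AS1, an antisense gene on the other strand, and whether the authors counted by strand is not given in the sources used here, so reads of the pair cannot be told apart with certainty. Their ratios lay on opposite sides of 1 in every cluster but 4 and 7, where both were below 1. TRDN-AS1 was at 11.9 CPM in cluster 5 and 23.8 CPM in the other cardiomyocyte-like cells, 1.99-fold lower (1.72 to 2.32), where TRDN was 2.11-fold higher. It was 3.13-fold lower (2.74 to 3.60) in cluster 1, at 7.99 CPM against 25.05 CPM in the others. In cluster 9 (540 cells, led by THBS1) it was at 52.0 CPM against 21.6 CPM in the others, a ratio of 2.40 (2.19 to 2.64), with a TRDN ratio of 0.817.

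Cardiomyocyte subtypes were also set side by side by single marker genes. Cells with a UMI of SHOX2, a pacemaker factor, numbered 230, cells with NR2F2, an atrial factor, and no SHOX2 3202, and cells with HEY2, a ventricular factor, and neither of these 8236. No member was called between SHOX2-positive and HEY2-positive cells, against 7.46% of measured genes, nor between NR2F2-positive and HEY2-positive cells, against 3.35%. JPH2 came closest. It was at 47.2 CPM in SHOX2-positive and 46.8 CPM in NR2F2-positive cells, against 32.9 CPM in HEY2-positive cells, ratios of 1.43 (1.22 to 1.67) and 1.42 (1.35 to 1.496).

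With a gate of at least 2 UMIs the JPH2 ratio was 1.78 for SHOX2-positive and 1.502 for NR2F2-positive cells, past the threshold in both. In hashtag-assigned cells it was 1.73 for SHOX2-positive and 1.61 for NR2F2-positive cells. After thinning to equal depth, the NR2F2-positive cells had 61.4 CPM against 36.8 CPM in HEY2-positive cells, a ratio of 1.67. In SHOX2-positive cells JPH2 was not called after thinning. HRC was called there instead, at 201 CPM against 128 CPM in HEY2-positive cells, a ratio of 1.57. Median depths differed before thinning, with 9605 UMIs in SHOX2-positive, 11097 in NR2F2-positive and 14769.5 in HEY2-positive cells. Within hashtags JPH2 was higher in NR2F2-positive than in HEY2-positive cells in 10 of 12 and past the threshold in 5. Without thinning and over all cells, RYR2, TRDN, ASPH and HRC had ratios of 0.870 to 1.12 in both comparisons. Only 1 hashtag had enough SHOX2-positive cells. Its ratios to HEY2-positive cells were 1.81 for RYR2, 1.53 for ASPH, 1.49 for HRC, 1.48 for TRDN and 1.44 for JPH2. Among the pathway genes CACNA1D was at 65.1 CPM in SHOX2-positive and 42.6 CPM in NR2F2-positive cells, against 17.1 CPM in HEY2-positive cells. SPEG was at 120 CPM in SHOX2-positive and 105 CPM in NR2F2-positive cells, against 55.6 CPM in HEY2-positive cells.

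Mitotic cardiomyocyte-like cells had lower levels of HRC and TRDN than non-mitotic ones. Cells with at least 3000 UMIs were thinned to that depth, and those with at least 5 of 24 mitotic genes (1273) were compared with those with at most 1 (11425). Of 5 measured members 2 were lower and none was higher, against 4.86% of measured genes called lower. HRC was at 64.2 CPM in mitotic and 135 CPM in non-mitotic cells, 2.11-fold lower (1.86 to 2.41). TRDN was at 207 CPM in mitotic and 314 CPM in non-mitotic cells, 1.52-fold lower (1.41 to 1.63), and 1.46-fold lower, without a call, when at least 3 mitotic genes were required.

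RYR2 lay at the threshold, with 157 CPM in mitotic and 234 CPM in non-mitotic cells, 1.49-fold lower (1.37 to 1.62). Without hashtag 3, 4 or 6 it was 1.501- to 1.51-fold lower and would have been called, as under TMM scaling, at 1.53-fold lower. ASPH was 1.38-fold lower (1.27 to 1.49), at 165 CPM in mitotic and 227 CPM in non-mitotic cells, and JPH2 1.21-fold lower (1.03 to 1.44), at 39.5 CPM in mitotic and 48.0 CPM in non-mitotic cells. HRC, TRDN, RYR2 and ASPH were lower in mitotic cells in each of 12 hashtags, and JPH2 in 9 of 12. HRC was past the threshold in 10 of the 12, by 1.33- to 5.08-fold over all of them. The share of cells with an HRC UMI at equal depth was 16.5% in mitotic and 32.1% in non-mitotic cells. ITPR2 was not measured, with 17 UMIs in mitotic and 93 in non-mitotic cells.

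Cardiomyocyte markers were also lower in mitotic cells, where the 12 genes stood at 62.6% to 97.01% of the level of all cardiomyocyte-like cells, with a median of 82.5%. HRC stood at 58.2% there, under all 12, while TRDN (73.1%), RYR2 (74.3%), ASPH (80.9%) and JPH2 (86.1%) were within the markers' range. In these values every UMI of the cells was counted. Of the 41 pathway genes 31 were measured, 2 higher and 6 lower, against 831 higher and 424 lower of all 8716 measured genes. Phospholamban (PLN), which restrains the calcium pump, was 1.80-fold lower (661 CPM in mitotic and 1192 CPM in non-mitotic cells) and TMEM38A 1.85-fold lower. CALM2 and CALM3, calmodulin genes, were higher, with ratios of 1.78 and 1.56.

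**Figure D3:**
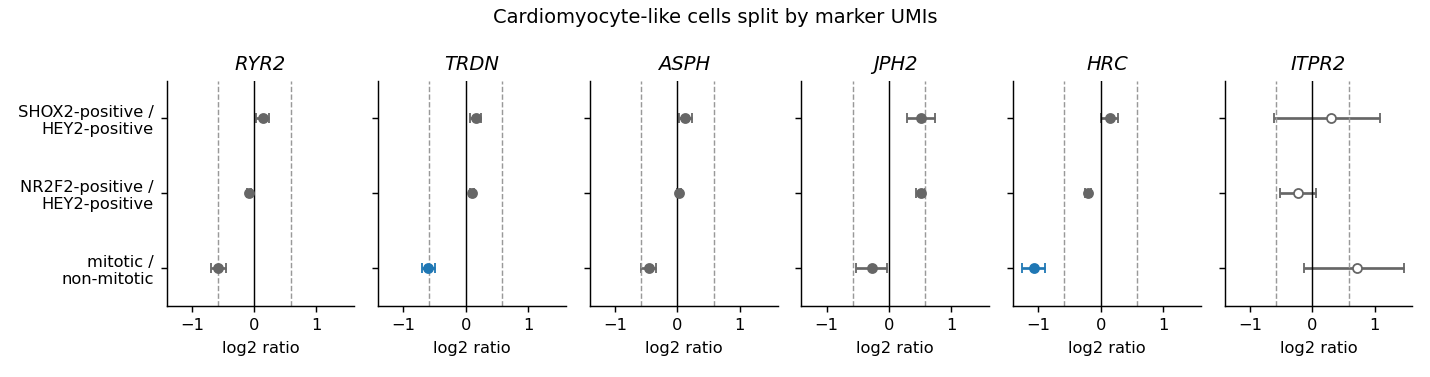
Log2 ratio of SHOX2-positive and NR2F2-positive over HEY2-positive cells and of mitotic over non-mitotic cells for 6 members, with exact 95% intervals; dashed lines mark a ratio of 1.5, blue points are called lower and open points are below the minimum level. HRC and TRDN are left of the line in mitotic cells (2.11- and 1.52-fold lower), and JPH2 is just inside it in SHOX2-positive and NR2F2-positive cells (1.43 and 1.42).

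A hashtag could be given to 9508 cells, 7294 of them cardiomyocyte-like, with 112 to 1018 cardiomyocyte-like cells per hashtag. RYR2 ranged 1.43-fold over the 13 hashtags, with 205 CPM in hashtag 6, a median of 225 CPM and 292 CPM in hashtag 1. HRC ranged from 87.3 CPM in hashtag 10 to 131 CPM in hashtag 6 (median 112 CPM) and ASPH from 161 CPM in hashtag 10 to 268 CPM in hashtag 2 (median 207 CPM). TRDN spread more widely, from 195 CPM in hashtag 9 to 450 CPM in hashtag 2 with a median of 261 CPM, 2.31-fold from lowest to highest. JPH2 ranged 2.82-fold, from 23.0 CPM in hashtag 10 to 64.7 CPM in hashtag 14 (median 40.3 CPM).

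The makeup of the hashtags differed along with these levels. In hashtag 2 cluster 5 made up 62.8% of the cardiomyocyte-like cells, and in hashtags 14 and 15 cluster 1 made up 76.7% and 81.4%. In hashtag 10 the largest cluster was cluster 6 (35.2%), and ITPR2 was highest there at 5.39 CPM from 42 UMIs, against a lowest value of 1.52 CPM in hashtag 6. Levels were also averaged with equal weight over the clusters of a hashtag that had enough cells. Hashtag 1 had only cluster 5 to average and is left out here. In the other hashtags, with 3 to 9 clusters averaged, JPH2 was between 21.9 CPM in hashtag 10 and 65.2 CPM in hashtag 14, TRDN between 193 CPM in hashtag 9 and 414 CPM in hashtag 2, and RYR2 between 180 CPM in hashtag 15 and 245 CPM in hashtag 12. The part of cluster makeup in the spread was not tested. CASQ2 was low throughout, with 2 to 17 UMIs per hashtag and 0.392 to 1.74 CPM. TRDN-AS1 ranged 5.03-fold, from 7.01 CPM in hashtag 15 to 35.3 CPM in hashtag 9.

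**Figure D4:**
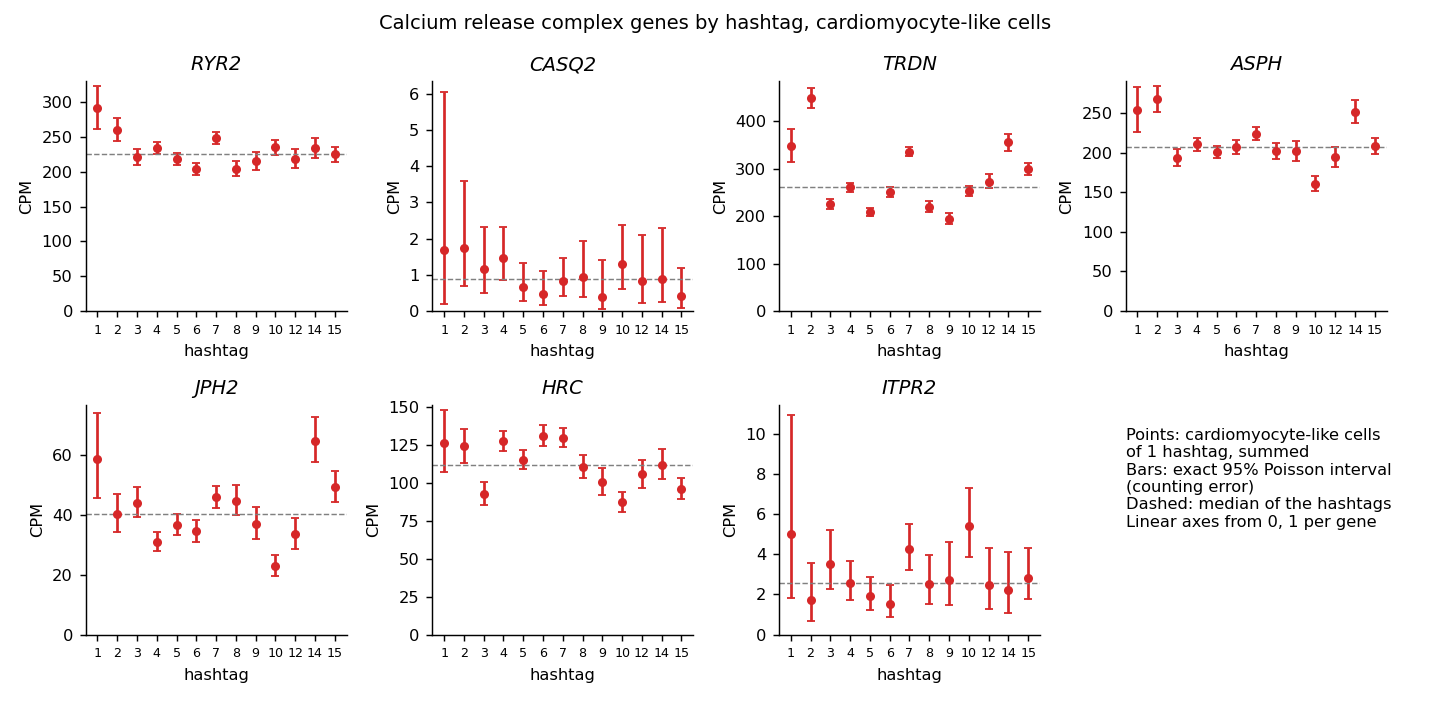
Level of each member in cardiomyocyte-like cells (CPM, linear axes from 0) by hashtag, with exact 95% Poisson intervals; the dashed line is the median over the 13 hashtags. RYR2 stays between 205 and 292 CPM, whereas TRDN reaches 450 CPM in hashtag 2 and JPH2 64.7 CPM in hashtag 14.

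At 3000 UMIs per cell, few cells gave UMIs of all of RYR2, TRDN, ASPH, JPH2 and HRC. Of 14366 cardiomyocyte-like cells 0.731% had all 5 and 10.5% had none, with a median of 2. Among 1435 stromal-like cells 49.4% had none.

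Members were also described by the genes whose level over the 15 cell groups was most like theirs, by Pearson's r of log2(CPM + 5). The groups come from 1 library and share its free RNA. They are 10 cardiomyocyte-like clusters and 5 other lineages, and genes that share only the difference between these can still reach a high r. RYR2 was most like FHOD3, RBM20 and FSD2 (r of 0.99 each), and TRDN like MYOM1, PTGES3L (both 0.99) and ALPK2 (0.98). JPH2 was most like KCNH2 (0.98), PPARGC1A (0.97) and ATP2A2 (0.97), HRC like CCDC141 (0.98), AKAP8L (0.97) and RBM24 (0.97), and ASPH like TRPC1 (0.96), RHOT1 (0.95) and LRRC39 (0.95). Among the genes most like ITPR2 were NOTCH3 (0.94) and WRN (0.93), and CASQ2 was too sparse for the measure. Among the 10 cardiomyocyte-like clusters alone, ASPH and HRC (r of 0.87), TRDN and ASPH (0.75) and TRDN and HRC (0.70) were alike, while RYR2 and JPH2 were not (-0.03). Over all 15 groups RYR2 had an r of 0.93 with JPH2. With TRDN its r was 0.95 over the 15 groups and 0.31 over the 10 clusters.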

How the data were processed

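RNA and hashtags of 1 pool were deposited by the authors as 1 matrix of UMI counts (36601 genes, 13 hashtags, 24038 barcodes), made with Cell Ranger 4.0.0 per the file headers and build hg38 per the submitters' processing notes. Gene and hashtag libraries share all barcodes. The sources used here give no alignment settings. Depth was 311110726 gene UMIs.

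Kept barcodes (21623) had 500 or more genes, 1000 or more UMIs and a mitochondrial share of 25% or less. Scrublet (scanpy 1.11.5) marked 2314 doublets (10.7%, against 17.3% expected), so some remain. Graphs of 15 neighbours on 30 components of 2000 variable genes, without the members, were clustered with leidenalg 0.10.2 at resolution 0.6. Ratios have conditional binomial, levels Poisson and shares Clopper-Pearson intervals (scipy 1.17.1). A count of 0 was set against 3 counts. A cell got the hashtag holding at least 70% of at least 20 hashtag UMIs. All 7 members were named everywhere, up to 3 genes per pathway list and 3 genes most like each member; some genes picked by this rule are not reported here. Ratios were tested on simulated data. TMM used edgeR 4.0.16. Members and lists were chosen with earlier results of these data known.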

Additional observations from a re-analysis of the deposited data

Results flagged for a closer look

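The 1675 low-depth barcodes, which entered no comparison, held 4 members above their level in cardiomyocyte-like cells by more than 1.5-fold. RYR2 was at 554 CPM in low-depth barcodes and 217 CPM in cardiomyocyte-like cells, a ratio of 2.55. ASPH was at 429 CPM in low-depth barcodes against 201 CPM in cardiomyocyte-like cells, a ratio of 2.14. JPH2 was at 73.1 CPM in low-depth barcodes and 39.2 CPM in cardiomyocyte-like cells, a ratio of 1.86. ITPR2 was at 19.6 CPM from 92 UMIs in low-depth barcodes and 2.85 CPM in cardiomyocyte-like cells, a ratio of 6.87. TRDN (1.27) and HRC (1.12) were not past the threshold, and no CASQ2 UMI was found. Of 9883 genes measured in this comparison 45.1% were higher and 22.9% lower in low-depth barcodes, with a median ratio of 1.35. Cardiomyocyte markers summed to 39950 CPM in low-depth barcodes and 40253 CPM in cardiomyocyte-like cells. Single markers stood at 32.3% (TNNC1) to 300.3% (TTN) of their level in cardiomyocyte-like cells, with a median of 101.5%. The ratios of RYR2, ASPH and JPH2 lay within the markers' range, and that of ITPR2 lay above it. The cause of these ratios was not tested.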

How the results depend on the processing

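No paired analysis was possible because the values come from 1 pool and no test; ratios within hashtags stand in the report. Over 419 recomputed counts of called members 378 stayed within 1.5 times the original, and 1 of 1040 recomputed ratios of called members changed direction. The calls in cardiomyocyte-like cells against other lineages stood under every alternative run, with 6 members, or 7 with no minimum level. Lineage counts stayed within 1.5 times. For cluster 2, with 1 call, there was 0 under the stricter filter, no filter, kept doublets, either Leiden resolution, TMM scaling and a threshold of 2; the clusters matched to it after re-clustering shared only part of its cells (Jaccard overlap 0.252 to 0.442), and with doublets kept clusters 2, 3 and 9 matched 1 cluster. For cluster 4, with 3 calls, there was 1 with no filter, with doublets kept and under TMM, and 0 at a threshold of 2. With no filter clusters 4 and 8 matched 1 cluster (Jaccard overlap 0.426 and 0.278). For cluster 5, with 3, there was 1 under TMM and at a threshold of 2. Cluster 10, with 2, had 1 under TMM and 0 at a threshold of 2. Its RYR2 ratio of 0.587 was 1.34 at Leiden resolution 0.3, where it merged into a larger cluster. Cluster 1 had 0 at a threshold of 2. Cluster 8, with 1, had 3 at resolution 0.3, where clusters 4 and 8 matched 1 cluster, 0 at a threshold of 2 and 2 with no minimum level. Cluster 6, with 0, had 1 at resolution 1.0 and 2 with no minimum level, and cluster 7, with 0, had 2 with no minimum level and 1 in hashtag-assigned cells. Against HEY2-positive cells, with 0 calls, SHOX2-positive cells had 1 with no minimum level, and both SHOX2-positive and NR2F2-positive cells had 1 in hashtag-assigned cells, with the gate of 2 UMIs and after thinning. The SHOX2-positive call after thinning was HRC, at 201 CPM against 128 CPM in HEY2-positive cells. Mitotic cells, with 2, had 1 at a threshold of 2 and with 3 mitotic genes. Leaving out each hashtag gave 5 to 6 members in endoderm-like cells, 0 to 1 in cluster 2, 2 to 3 in cluster 4, 0 to 1 in cluster 6 and 2 to 3 in mitotic cells; the other counts did not move. With a hashtag share of at least 90% (2476 cells) the median of CASQ2 was 0.332 CPM in place of 0.893 CPM, and the other 13 of 14 hashtag medians moved by less than 1 SD. The cause of these shifts was not tested. Clusters of an alternative were matched to the original ones by largest overlap.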

Other observations

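Pathway genes outside the release complex were high in other lineages or in single clusters. ATP2B1, a plasma membrane calcium pump, was at 342 CPM in stromal-like cells and 51.2 CPM in cardiomyocyte-like cells, a ratio of 6.69. Sarcolipin (SLN), a small regulator of the reticulum's pump, was at 61.7 CPM in epithelial-like cells and 0.603 CPM in cardiomyocyte-like cells, where 132 UMIs were found. BIN1 was at 69.7 CPM in stromal-like cells and 9.56 CPM in cardiomyocyte-like cells. Within cardiomyocyte-like cells it was at 35.9 CPM in cluster 5 and 47.7 CPM in cluster 10, with ratios of 4.77 and 5.14 to the other cardiomyocyte-like cells. Summed stromal markers were at 40.6 CPM in cluster 5 and 287 CPM in cluster 10, against 49.2 CPM in all cardiomyocyte-like cells, and their part in the BIN1 levels was not tested. JPH1 was at 81.9 CPM in cluster 9 and 26.9 CPM in the other cardiomyocyte-like cells, a ratio of 3.04, while JPH2 in the same cells had a ratio of 0.878.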
